A study of Mus musculus with 8 samples.

Results

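The 41 very long neuronal and adhesion genes described here are mouse genes whose transcribed regions run far longer than most, and BMAL1 peaks were assigned to them by 2 criteria. A peak belonged to one of these genes when its centre lay in the gene body, or when the nearest curated RefSeq transcription start site was that of the gene. Of the 211109 peaks in the 4 deposited lists, 5592 met this rule: 407 of 13683 in DIFF1, 4719 of 185417 in DIFF2, 240 of 6534 in UNDIFF6 and 226 of 5475 in UNDIFF8. The genes were grouped by function and length, and densities are peaks per Mb of gene body set against the mean of the same chromosome. BMAL1 was precipitated from HC11 cells, a clonal line of mouse mammary epithelium, in 2 differentiated cultures (DIFF1 and DIFF2) and 2 undifferentiated ones (UNDIFF6 and UNDIFF8), each called against its own input DNA. All cultures were kept without EGF for 48 h in medium with 10% serum and 5 µg/mL insulin. The DIFF cultures then had 0.1 µM dexamethasone, 5 µg/mL insulin and 5 µg/mL prolactin for 96 h, and all chromatin was fixed in 1% formaldehyde. With 2 samples in each state, 0.33 is the lowest p that exact permutation of the samples allows. Peak lists say nothing of RNA, so whether HC11 cells transcribe any of these genes was not measured.

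BMAL1 is the transcription factor that pairs with CLOCK to drive the circadian clock. The pair binds the E-box CACGTG, in promoters and enhancers of genes that include its own repressors. The genes described here mostly encode cell surface proteins by which neurons recognise each other, such as contactins, neurexins, teneurins and IgLON proteins, and the scaffolds beneath them. Their great length is nearly all intron, and several of them, Fhit and Wwox among them, span fragile sites in the human genome. In these data the 41 gene bodies covered 48.6 Mb, or 1.84% of the ungapped genome, on 17 of 21 chromosomes. They ran from 0.222 Mb (Chl1) to 2.27 Mb (Ptprd) with a median of 1.13 Mb. Exons made up 0.642% of that length. The sequence had 39.4% G and C, against 41.7% in the genome, and 28.1% of it was soft-masked as repeat, against 36.4% in the genome.

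The sites that the following results turn on are shown here from the GRCm38 reference, 5′ to 3′ on the plus strand. The first is the site with the most tags in any of these genes, in an intron of Chl1 (chr6:103649081-103649309, UNDIFF8 peak), with the core of the CENP-B box in capitals (TTCG, any 4 bases, A, any 2 bases and CGGG, on either strand). The second lies in Galntl6 (chr8:58689116-58689330, DIFF1 peak) and is the 1 place where peaks of 3 samples met, with the 72 bases common to the 3 peaks in capitals. The next 2, in Marchf1 (chr8:65837970-65838164) and Csmd3 (chr15:48394159-48394353), are the sites that both UNDIFF samples shared, as UNDIFF6 peaks with the common bases in capitals. The Nrxn3 peak (chr12:88794543-88794757, DIFF1) is the only one within 1 kb of a start site outside DIFF2. The last 2, in Rbfox1 (chr16:7150346-7150560, DIFF1) and Ctnna2 (chr6:77419749-77419943, UNDIFF6), are the non-repeat peaks with the highest fold over input among those with an E-box in their sample, and the E-box is in capitals.
Chl1 site: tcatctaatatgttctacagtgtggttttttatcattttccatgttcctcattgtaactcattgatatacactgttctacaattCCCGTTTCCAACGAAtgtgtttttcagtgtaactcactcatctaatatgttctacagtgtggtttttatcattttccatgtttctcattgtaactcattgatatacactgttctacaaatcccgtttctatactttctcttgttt
Galntl6 site: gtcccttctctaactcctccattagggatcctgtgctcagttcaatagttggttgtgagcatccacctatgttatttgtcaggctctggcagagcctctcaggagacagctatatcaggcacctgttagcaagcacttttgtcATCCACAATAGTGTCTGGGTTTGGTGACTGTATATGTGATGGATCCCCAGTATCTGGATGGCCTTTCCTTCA
Marchf1 site: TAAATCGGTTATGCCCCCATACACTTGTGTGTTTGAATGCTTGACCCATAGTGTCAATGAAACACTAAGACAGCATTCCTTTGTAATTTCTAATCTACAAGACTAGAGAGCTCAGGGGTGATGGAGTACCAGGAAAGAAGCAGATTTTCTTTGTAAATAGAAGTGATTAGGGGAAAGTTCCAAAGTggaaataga
Csmd3 site: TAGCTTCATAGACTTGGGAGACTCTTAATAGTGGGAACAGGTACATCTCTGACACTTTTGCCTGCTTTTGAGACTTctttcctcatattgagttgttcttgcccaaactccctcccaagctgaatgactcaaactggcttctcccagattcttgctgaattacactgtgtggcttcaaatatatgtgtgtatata
Nrxn3 site: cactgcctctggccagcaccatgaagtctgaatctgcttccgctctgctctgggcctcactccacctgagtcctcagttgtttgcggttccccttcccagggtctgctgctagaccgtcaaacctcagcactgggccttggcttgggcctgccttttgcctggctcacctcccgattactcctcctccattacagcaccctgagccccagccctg
Rbfox1 E-box site: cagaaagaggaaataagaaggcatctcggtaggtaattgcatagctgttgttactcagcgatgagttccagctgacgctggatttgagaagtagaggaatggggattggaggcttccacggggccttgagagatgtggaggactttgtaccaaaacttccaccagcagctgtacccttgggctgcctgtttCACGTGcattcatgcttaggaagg
Ctnna2 E-box site: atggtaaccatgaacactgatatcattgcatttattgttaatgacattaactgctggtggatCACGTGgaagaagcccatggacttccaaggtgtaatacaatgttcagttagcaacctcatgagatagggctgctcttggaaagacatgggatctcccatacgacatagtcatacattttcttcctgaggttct

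The lists differed in depth and length, and DIFF2 stood apart from the other 3. The sequencing depth, as far as tags and normalized tag counts show the lower total of each ChIP and input pair, was 57.5 M tags in DIFF1, 35.3 M in DIFF2, 80.4 M in UNDIFF6 and 77.1 M in UNDIFF8. Peaks were 215, 337, 195 and 229 bases wide in the same order. DIFF2 held more peaks than the other lists together, and 86.0% of them were centred in repeats, against 26.6% in DIFF1, 21.4% in UNDIFF6 and 26.3% in UNDIFF8. Results are therefore given list by list, and those that DIFF2 decides are given without it as well. Peaks per Mb also differed many-fold between chromosomes, which is why each gene was set against its own chromosome.

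As 1 stretch of sequence, the gene bodies held about as many BMAL1 peaks as their length and chromosome would give. In DIFF1, 311 peaks lay in them where 302 were expected from the chromosome means, a ratio of 1.03 (95% exact Poisson interval 0.919 to 1.15). In DIFF2 there were 3212 where 3700 were expected, a ratio of 0.868 (0.838 to 0.899). UNDIFF6 had 176 where 154 were expected, a ratio of 1.14 (0.977 to 1.32), and UNDIFF8 had 158 where 130 were expected, a ratio of 1.21 (1.03 to 1.41). These intervals cover counting error only. DIFF2 was thus under the chromosome means and UNDIFF8 over them, while the intervals of DIFF1 and UNDIFF6 held 1. In UNDIFF8, Marchf1 held 24 of the 158 peaks and Galntl6 held 30, where 5.73 and 7.63 were expected. The excess of that list rests largely on these genes and was not shared by most of the others. In UNDIFF8, 15 genes lay above their chromosome mean, and the median ratio was 0.486. All protein coding genes of at least 200 kb, 938 in number, gave summed ratios of 1.01 in DIFF1, 0.864 in DIFF2, 1.04 in UNDIFF6 and 1.04 in UNDIFF8.

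The single genes spread widely around that mean. The median ratio of the 41 genes was 0.893 in DIFF1, 0.831 in DIFF2, 0.892 in UNDIFF6 and 0.486 in UNDIFF8, and over the 206 genes of at least 500 kb it was 0.899, 0.850, 0.542 and 0 in the same order. At least 1 peak was present in 38 of the 41 genes in DIFF1, in all 41 in DIFF2, in 30 in UNDIFF6 and in 26 in UNDIFF8. These counts by list are given without the share over genes of like length. Of the 38 members that were at least 500 kb long, 21 had a peak in all 4 lists, beside 44.2% of all genes of that length. Of the 41, 5 were above their chromosome mean in all 4 lists: Marchf1, Galntl6, Ctnna2, Csmd3 and Fhit. This was 12.2% of the members, and the share over all 938 genes of at least 200 kb was 5.97%, and over genes of at least 500 kb, where 5 of 38 members qualified, it was 11.7%. Another 11 genes were below the chromosome mean in all 4 lists, 10 of them at least 500 kb long, beside 24.8% of all genes of that length. At 13.2% and 26.3% of the 38 members, both counts lay close to the shares of all genes of that length. Without DIFF2, 9 of the 41 were above the mean in the remaining 3 lists (Ptprt, Cntnap2, Cntn4 and Pard3b besides the 5), beside 9.38% of genes of at least 200 kb and 18% of genes of at least 500 kb.

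**Figure D1:**
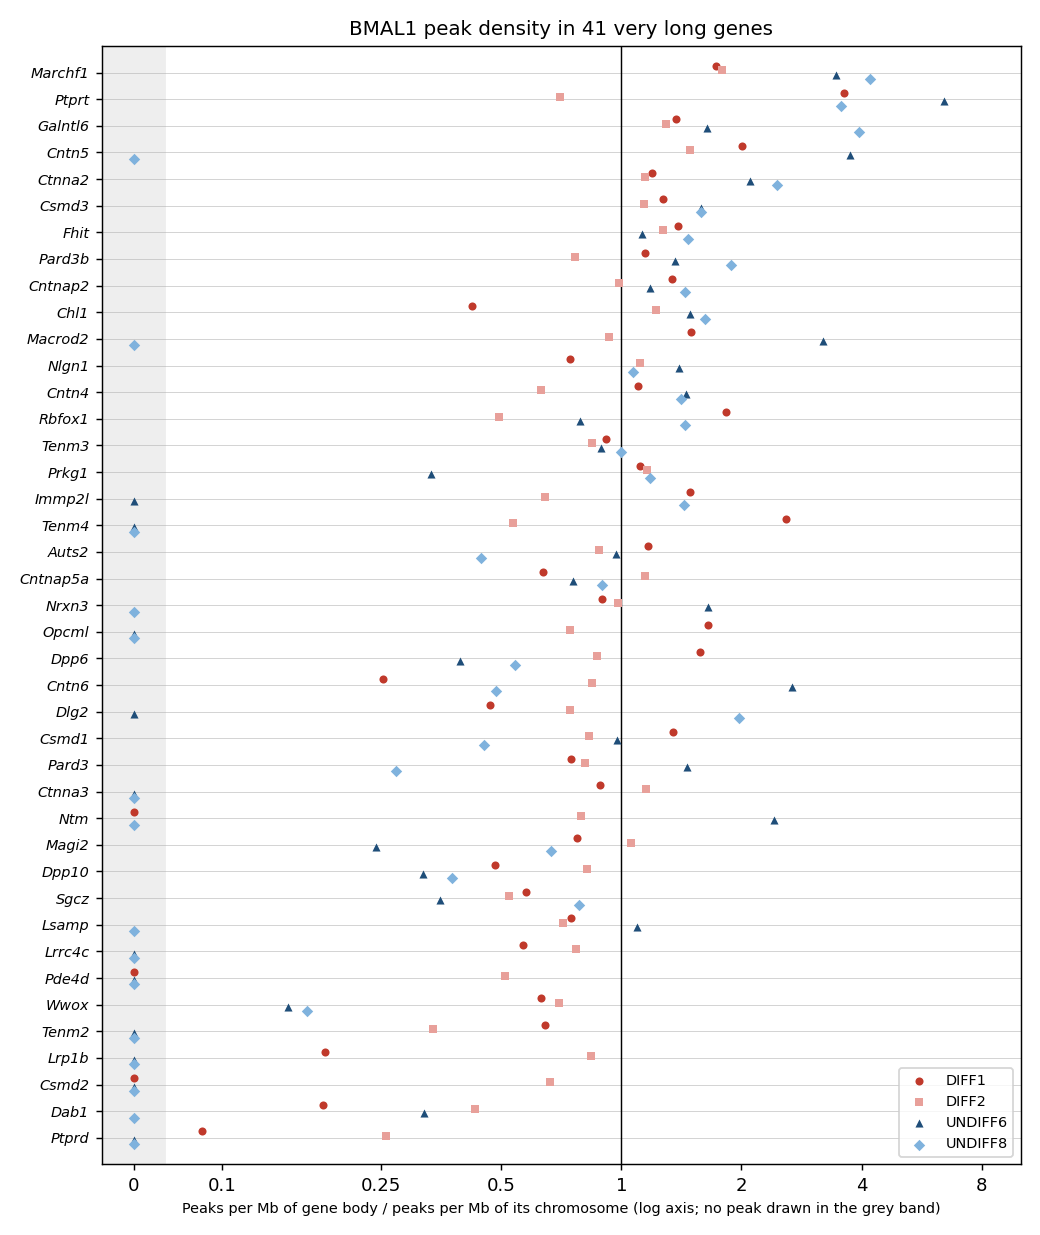
Peaks per Mb of gene body over peaks per Mb of the chromosome for each of the 41 genes (rows, ordered by the average log2 density), in the DIFF1, DIFF2, UNDIFF6 and UNDIFF8 lists (log axis; genes with no peak in a list lie in the grey band). Marchf1 lies right of 1 in all 4 lists, with ratios of 1.73 to 4.19, and Ptprd left of 0.3 in all of them.

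Marchf1, a membrane-bound ubiquitin ligase that lowers MHC class II and CD86 on the surface of immune cells, had the highest density of all 41. Its body (chr8:65618040-66471637, plus strand) held 18 peaks in DIFF1, 141 in DIFF2, 22 in UNDIFF6 and 24 in UNDIFF8. Per Mb this was 21.1, 165, 25.8 and 28.1 peaks, against chromosome means of 12.2, 92.3, 7.49 and 6.71, or 1.73, 1.79, 3.44 and 4.19 times as many. Both DIFF ratios were thus below both UNDIFF ratios. The peaks were spread over most of the gene body in each list, though the first UNDIFF6 peak lay 140 kb from the 5′ end. Its average log2 density over the chromosome mean was 1.40 ± 0.20 (SE, limma, adjusted p = 0.12).

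Galntl6, a member of the GalNAc transferase family that starts O-linked glycans, lies on the same chromosome (chr8:57774052-58911627, minus strand). It held 19, 136, 14 and 30 peaks in DIFF1, DIFF2, UNDIFF6 and UNDIFF8, at ratios of 1.37, 1.30, 1.64 and 3.93. UNDIFF8 was the high sample. The other genes of this metabolic and fragile site group were Fhit, Macrod2, Immp2l and Wwox. Fhit, a diadenosine triphosphate hydrolase lost in many tumours, had 14, 149, 4 and 4 peaks. Its ratios of 1.39, 1.27, 1.12 and 1.47 were all above 1. Only the exact Poisson interval of DIFF2, 1.07 to 1.49, excluded 1. Those of DIFF1 (0.76 to 2.33), UNDIFF6 (0.306 to 2.88) and UNDIFF8 (0.401 to 3.76) held it. Wwox, an oxidoreductase with WW domains, was low instead, with 7 peaks in DIFF1, 59 in DIFF2, 1 in UNDIFF6 and 1 in UNDIFF8 (ratios of 0.629, 0.700, 0.146 and 0.163). Macrod2, which removes ADP-ribose from proteins, had 8, 112 and 7 peaks in DIFF1, DIFF2 and UNDIFF6 but none in UNDIFF8, where 0.984 was expected. Immp2l, a protease subunit of the mitochondrial inner membrane, ranged between 0 and 1.49 in ratio.

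Ptprd and Ptprt, both receptor tyrosine phosphatases that bind partners across the synapse or between cells, stood at opposite ends. Ptprt (chr2:161521988-162661147, minus strand) held 11 peaks in DIFF1, 48 in DIFF2, 8 in UNDIFF6 and 2 in UNDIFF8. That was 3.60, 0.700, 6.42 and 3.56 times the chromosome mean, so DIFF2 alone was below it. The UNDIFF8 ratio rests on 2 peaks, and its exact Poisson interval was 0.431 to 12.9. In Ptprd (chr4:75941237-78211742, minus strand), the longest gene of all, the 4 lists held 1, 41, 0 and 0 peaks, where 11.3, 159, 6.29 and 6.82 were expected. The ratio was 0.0888 in DIFF1 and 0.257 in DIFF2, and the 0 peaks of UNDIFF6 and UNDIFF8 allowed ratios of up to 0.477 and 0.440 (3 counts over the expected number). The average log2 density was 1.39 ± 0.48 for Ptprt and -3.07 ± 0.25 for Ptprd (SE, limma, adjusted p = 0.21 and 0.12).

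**Figure D2:**
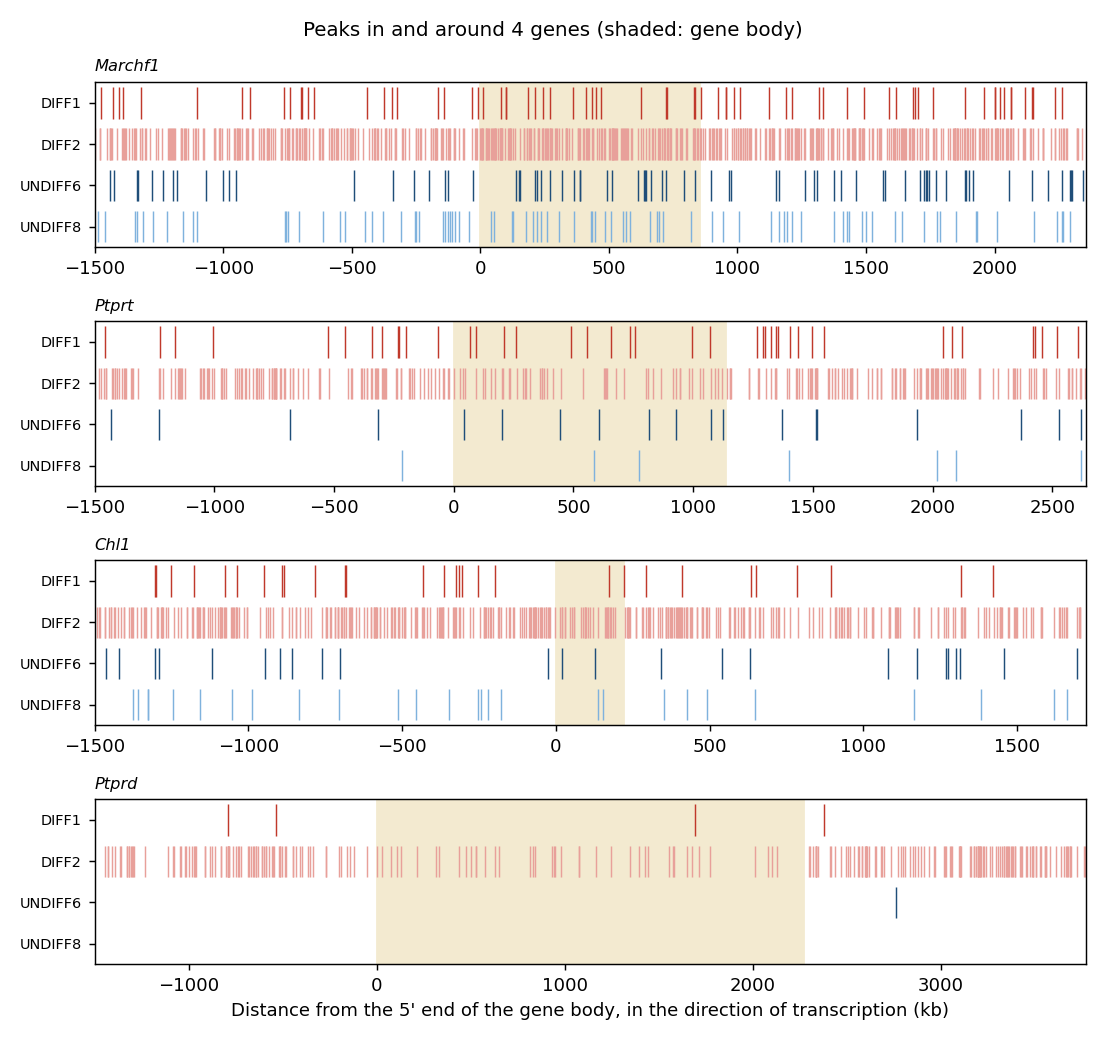
Peaks (vertical ticks) of the DIFF1, DIFF2, UNDIFF6 and UNDIFF8 lists in and around Marchf1, Ptprt, Chl1 and Ptprd, against the distance from the 5′ end of the gene body in kb (shaded: gene body). The Ptprd body holds 1 DIFF1 peak and no UNDIFF peak, and its 41 DIFF2 peaks lie further apart than those outside it.

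Csmd1, Csmd2 and Csmd3 encode giant membrane proteins of CUB and sushi domains, known as complement regulators, and Lrp1b is a giant receptor of the LDL receptor family. Csmd3 (chr15:47580638-48791989, minus strand) had 16, 143, 14 and 14 peaks in DIFF1, DIFF2, UNDIFF6 and UNDIFF8 and ratios of 1.27, 1.14, 1.58 and 1.58. It was the gene poorest in G and C, at 35.2%. Csmd1 had 27, 126, 12 and 5 peaks (1.35, 0.831, 0.975 and 0.453), above the mean in DIFF1 and lowest in UNDIFF8. Csmd2, richest in G and C at 48.0%, had 27 peaks in DIFF2 and none in the other 3 lists, where 2.87, 1.60 and 1.74 were expected in DIFF1, UNDIFF6 and UNDIFF8. Lrp1b had 1 peak in DIFF1, 104 in DIFF2 and none in UNDIFF6 and UNDIFF8, with ratios of 0.181 and 0.840 in the DIFF lists. Across the 41 genes the rank correlation of the average log2 density with G and C content was -0.15, given as a description over genes that share the 4 libraries.

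The alpha catenins link cadherins to actin. Ctnna2, the neuronal form (chr6:76881637-77979667, minus strand), held 14, 125, 14 and 15 peaks in DIFF1, DIFF2, UNDIFF6 and UNDIFF8, at 1.19, 1.15, 2.10 and 2.46 times the chromosome mean. As in Marchf1, both DIFF ratios were below both UNDIFF ratios. Ctnna3 had 2 and 106 peaks in DIFF1 and DIFF2 and 0 in both UNDIFF lists, where 0.706 and 0.471 were expected. Of the scaffold and polarity genes, Pard3b, a paralog of the PAR-3 polarity scaffold, had 10, 72, 6 and 7 peaks (ratios of 1.15, 0.765, 1.36 and 1.88). Pard3 itself had 5, 41, 6 and 1 (0.748, 0.810, 1.46 and 0.272), and the UNDIFF samples lay on either side of the DIFF samples. Dlg2, a synaptic scaffold of the PSD-95 family, had 1, 51, 0 and 1, on a chromosome where 0.508 was expected in each UNDIFF list. Magi2, a scaffold with WW and PDZ domains, had 8, 129, 1 and 2 peaks.

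The adhesion molecules of the immunoglobulin superfamily were mixed. Cntn5, a contactin anchored to the membrane by lipid, had 4, 103 and 2 peaks in DIFF1, DIFF2 and UNDIFF6. Its ratios there were 2.01, 1.48 and 3.75. The exact Poisson intervals of DIFF1 (0.547 to 5.14) and UNDIFF6 (0.454 to 13.5) held 1. That of DIFF2 (1.21 to 1.8) did not. UNDIFF8 had 0 peaks in Cntn5, where 0.205 was expected. Chl1, a close homolog of L1, had 1, 27, 2 and 2 peaks (0.421, 1.22, 1.49 and 1.62) in its short body. Cntn4, Cntn6, Opcml, Ntm and Lsamp ranged between 0 and 2.67 in ratio. Their group of 7 held 31 peaks in DIFF1, 446 in DIFF2, 26 in UNDIFF6 and 11 in UNDIFF8, or 0.861, 0.840, 1.56 and 0.879 times the expected number. Cntnap2, a contactin-associated protein that clusters potassium channels at the axon (chr6:45060061-47301388, plus strand), held the most peaks of any member in DIFF1 and DIFF2, 32 and 220, beside 16 in UNDIFF6 and 18 in UNDIFF8. Since it is 2.24 Mb long, its ratios were only 1.34, 0.988, 1.18 and 1.45. Its partners in the neurexin and neuroligin group (Cntnap5a, Nrxn3 and Nlgn1) brought the group to 1.07, 1.04, 1.16 and 1.22 times the expected number.

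The teneurins, large transmembrane proteins that pair across synapses, and Lrrc4c, the netrin-G1 ligand, were below the expected number in sum, though not gene by gene. Together these 4 genes held 13 peaks in DIFF1, 140 in DIFF2, 3 in UNDIFF6 and 3 in UNDIFF8, or 0.877, 0.612, 0.435 and 0.572 times the expected number. Tenm2 (chr11:36006656-36944241, minus strand) had 3 peaks in DIFF1, 24 in DIFF2 and 0 in UNDIFF6 and UNDIFF8, where 4.67, 71, 1.82 and 1.30 were expected, with ratios of 0.643 and 0.338 in the DIFF lists. Tenm3 lay between 0.844 and 0.996 in all 4 lists and held all 6 of the UNDIFF peaks of the group. Tenm4 was at 2.58 in DIFF1, from 3 peaks, and at 0.535 in DIFF2. Neither Tenm4 nor Lrrc4c had a peak in the UNDIFF lists. Dpp6 and Dpp10, auxiliary subunits of Kv4 potassium channels, held 13, 120, 2 and 2 peaks in sum (1.04, 0.845, 0.352 and 0.444). Among the signalling genes, Dab1, the adaptor of the reelin pathway, had 1, 34, 1 and 0 peaks, where 5.58, 79.0, 3.12 and 3.38 were expected. Pde4d, a cAMP phosphodiesterase, had 35 peaks in DIFF2 only. Rbfox1, a neuronal splicing regulator, was high in DIFF1 with 17 peaks (1.83) and low in DIFF2 with 63 (0.494). Auts2, Prkg1 and Sgcz had ratios between 0.334 and 1.18.

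No gene passed the test of its density against the chromosome mean. In the limma fit over the 938 genes of at least 200 kb, 0 of the 41 genes had an adjusted p under the threshold of 0.05 (background 0%), the lowest being 0.12. At an unadjusted threshold of 0.05, 4 of 41 were higher (Marchf1, Ptprt, Galntl6 and Ctnna2), beside 6.18% of all genes tested, and 10 of 41 were lower, beside 15.2%. The median of the average log2 density was -0.12 over the 41 genes and -0.21 over all genes tested. When genes of at least 500 kb were fitted alone, 9 of 38 members passed, beside 15% of all genes fitted. These were Marchf1 and Ptprt on the higher side and Ptprd, Dab1, Csmd2, Lrp1b, Tenm2, Wwox and Pde4d on the lower. With an equal number of top scoring peaks from each list, 5 of 41 passed, beside 12.9% of all. Ptprd alone passed with UNDIFF6 or UNDIFF8 left out, and no gene with DIFF1 or DIFF2 left out.

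The density of a gene body went along with that of the sequence around it. In the 5 Mb on either side of Ptprd, outside the gene, the density was 0.161, 0.853, 0.108 and 0.0665 times the chromosome mean in DIFF1, DIFF2, UNDIFF6 and UNDIFF8. Thus DIFF1 and both UNDIFF lists were nearly as empty around Ptprd as in it, whereas DIFF2 was sparse in the gene body itself. Around Ptprt the flanks were at 3.06, 1.30, 2.56 and 3.44 times the mean, and around Marchf1 at 1.31, 1.19, 2.00 and 2.49. Marchf1, Fhit and Cntnap5a were the genes whose bodies were denser than their flanks in all 4 lists, 3 of the 38 of at least 500 kb, beside 5.34% of all genes of that length. Over the 41 genes the rank correlation of body and flank density was 0.53 in DIFF1, 0.54 in DIFF2, 0.56 in UNDIFF6 and 0.59 in UNDIFF8, as a description of genes that share chromosomes and libraries. With the flanks in place of the chromosome as the standard, an alternative chosen after seeing the data, 0 of 37 members passed limma at an adjusted threshold of 0.05 (background 0%) and 6 at an unadjusted one, beside 10.1% of all genes fitted. The part of copy number or mappability in these regional densities was not tested.

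**Figure D3:**
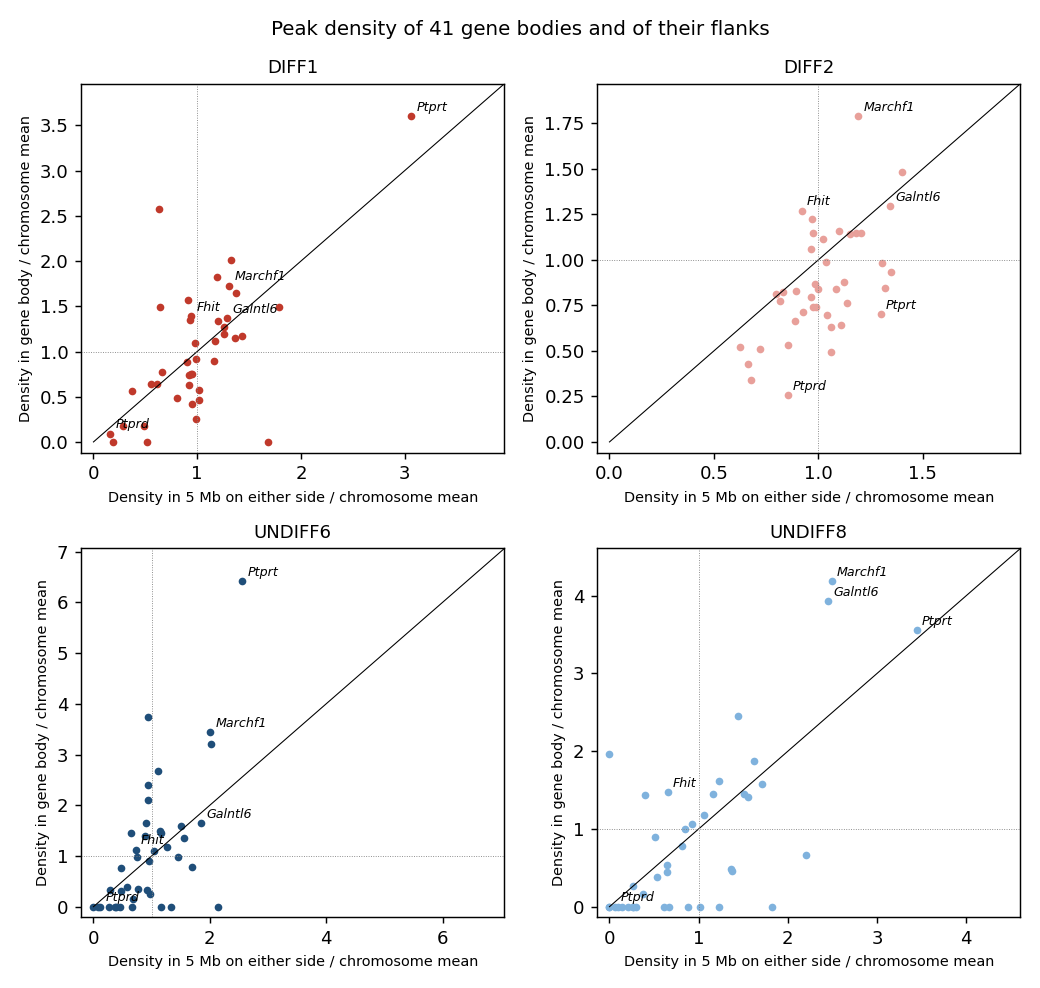
Peak density of each of the 41 gene bodies (vertical axis) against that of the 5 Mb on either side (horizontal axis), both over the chromosome mean, in DIFF1, DIFF2, UNDIFF6 and UNDIFF8 (diagonal: equal densities). Ptprt lies far up the diagonal in DIFF1, where its body is at 3.60 and its flanks at 3.06.

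The 2 states were compared next. The gene bodies held 2.27% of the peaks of DIFF1 and 1.73% of those of DIFF2, against 2.69% in UNDIFF6 and 2.89% in UNDIFF8. Both DIFF shares were below both UNDIFF shares, with means of 2.00 ± 0.38% in DIFF and 2.79 ± 0.14% in UNDIFF (SD, n = 2 each; p = 0.33 by two-sided exact permutation, the lowest this design allows). The shares take no account of how each list was spread over the chromosomes. Against the chromosome means the summed ratios were 1.03 and 0.868 in DIFF and 1.14 and 1.21 in UNDIFF. The Poisson interval of DIFF1 overlapped those of both UNDIFF lists. By density, relative to the chromosome, limma called 0 of 41 genes different between DIFF and UNDIFF at an adjusted p of 0.05 (background 0%). At an unadjusted threshold of 0.05 it took 2, Wwox with a log2 difference of 1.57 ± 0.39 and Marchf1 with -1.12 ± 0.40 (SE), beside 6.08% of all genes tested. The 5 Mb on either side of each gene went the same way. Around Wwox the density was 0.919 and 1.04 times the chromosome mean in DIFF, against 0.681 and 0.373 in UNDIFF. Around Marchf1 it was 1.31 and 1.19, against 2.00 and 2.49. The gene body ratio was higher in both DIFF lists than in both UNDIFF lists for 11 of the 38 genes of at least 500 kb, beside 27.7% of all such genes, and lower for 6 of 38, beside 14.1%. The 11 included 7 with no UNDIFF peak at all. The median log2 ratio of the genes was -0.22 ± 0.07 in DIFF and -0.60 ± 0.62 in UNDIFF (SD, n = 2 each; exact permutation test, two-sided p = 0.67), and its difference turned negative without UNDIFF8.

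Few sites recurred between samples. Of 3807 distinct sites in the 41 gene bodies, 49 (1.29%) held peaks of 2 or more samples, beside 0.841% of all 209322 sites of the series. Such a site was found in 22 of the genes, a count given without the share over genes of like length. Csmd3 had 7, Marchf1 and Galntl6 6 each, and Cntn5, Cntnap2 and Ctnna2 3 each. In DIFF1 8.68% of the member peaks overlapped a peak of another list (95% Wilson interval 6.04% to 12.3%), beside 6.32% of the whole list, and in DIFF2 1.43% (1.08% to 1.90%), beside 0.863%. In UNDIFF6 it was 5.11% (2.71% to 9.43%), beside 7.30%, and in UNDIFF8 10.8% (6.83% to 16.6%), beside 11.1%. DIFF2 took part in 46 of the 49, and without it 4 sites were left. The Galntl6 site printed above is one of these, where DIFF1 (17.6 tags, 5.02-fold over input), DIFF2 (20.0 tags, 4.39-fold) and UNDIFF8 (25.5 tags, 2.93-fold) met in a repeat. At the Marchf1 site UNDIFF6 had 25.8 tags against 6 in the input (4.30-fold) and UNDIFF8 30.0 against 1 (31.04-fold). The site lay outside repeats and had no DIFF peak. The Csmd3 site had 26.3 tags against 6.5 in the input (4.04-fold) in UNDIFF6 and 29.0 against 2.4 (12-fold) in UNDIFF8. The median input of the UNDIFF8 list was 6.3 tags, so these UNDIFF8 folds rest on low input counts. The fourth, also in Galntl6, joined DIFF1 (16.9 tags) and UNDIFF8 (25.5 tags).

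The peaks lay deep in introns. Their centres fell in an exon of the gene in 2 of 311 peaks in DIFF1, 7 of 3212 in DIFF2, 0 of 176 in UNDIFF6 and 0 of 158 in UNDIFF8, the last of which allows a share of up to 1.90%, and exons are 0.642% of the sequence. With each gene body cut in 3 equal parts, the part at the 5′ end held 35.0%, 36.6%, 34.7% and 29.7% of the peaks of DIFF1, DIFF2, UNDIFF6 and UNDIFF8, and the part at the 3′ end 31.2%, 31.6%, 37.5% and 32.3%. In DIFF2 the 95% Wilson interval of the 5′ part, 35.0% to 38.3%, lay above the 33.3% of an even spread, and that of the 3′ part, 30.0% to 33.2%, below it, while both intervals of the other 3 lists held 33.3%. Where the nearest start site belonged to the gene itself, the peaks in its body were a median of 201 kb, 208 kb, 211 kb and 217 kb away from it.

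Within 1 kb of a start site of the 41 genes there was 1 peak in DIFF1, 6 in DIFF2 and none in UNDIFF6 and UNDIFF8. That was 0.365% of the DIFF1 peaks nearest to these genes (95% Wilson interval 0.0645% to 2.04%) and 0.175% of those of DIFF2 (0.0802% to 0.381%), against 1.34% and 1.08% of all DIFF1 and DIFF2 peaks. The 0 of 177 peaks in UNDIFF6 and 0 of 155 in UNDIFF8 allow shares of up to 1.69% and 1.94%, against 1.33% and 0.694% of the whole lists. Of these, the DIFF2 interval alone lay below the share of its whole list. The genes were grouped in part by their length, so the whole lists are not matched to them in distance from start sites. Genes of like length were not compared, and no avoidance of these start sites can be read from the shares. The DIFF1 peak was centred 146 bases downstream of a start of Nrxn3, a neurexin of the presynaptic membrane, with 17.2 tags and a 3.13-fold excess over input, and its sequence above has no CACGTG. The body of Nrxn3 otherwise had ratios of 0.893, 0.981, 1.65 and 0. The DIFF2 peaks at start sites were those of Rbfox1 (6.44-fold over input), Ptprt (3.50), Lrp1b (3.36), Dpp6 (2.96), Dab1 (2.91) and Ptprd (2.66), all outside repeats and none with an E-box.

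The 2 criteria for membership often parted. In DIFF1 133 of the 311 peaks in the gene bodies had their nearest start site in a gene other than these 41, in DIFF2 1289 of 3212, in UNDIFF6 63 of 176 and in UNDIFF8 71 of 158. Galntl6 is the clearest case, since only 1, 11, 0 and 3 peaks were nearest to its own start sites. Of its 19, 136, 14 and 30 body peaks, 12, 62, 7 and 18 were nearest to Gm15881 and 6, 63, 7 and 9 to Gm2921. Likewise 7, 29, 4 and 2 of the Ptprt body peaks were nearest to the antisense gene Ptprtos, and in Ctnna2 4, 44, 6 and 7 were nearest to Lrrtm1, a synaptic adhesion gene within its intron. Csmd3 showed the opposite, with 27, 252, 19 and 26 peaks nearest to its start sites, more than in its body in every list.

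The strongest signal in these genes was 1 site in Chl1, which stood far from all others. The DIFF2 peak there had 13731 tags, a normalized tag count of 3893.5, against a median of 6.52 for the DIFF2 peaks of the 41 genes. The UNDIFF8 peak had 4237 tags and a normalized tag count of 549.7, against a median of 3.21. By normalized tag count it ranked 7 in the whole DIFF2 list and 1 in the UNDIFF8 list, while DIFF1 and UNDIFF6 had no peak at the site. The input was high as well, with 432.5 tags in DIFF2 and 570.2 in UNDIFF8, where the medians of the whole lists were 4.8 and 6.3, which leaves a 31.75-fold and a 7.43-fold excess over input. The sequence printed first above repeats itself after 120 bases. With bases compared at that fixed offset and no gaps allowed, 67.9% of 109 positions were identical. Bases shifted by an insertion or loss count as unlike there, so the share understates how alike the copies are. The sequence holds 1 match to the CENP-B box core, which 1 of 3212 member peaks in DIFF2, 1 of 158 in UNDIFF8 and none in DIFF1 and UNDIFF6 contained, and which 0.00283% of 229-base windows tiling the gene bodies hold. As background, the CENP-B box is the binding site of a centromere protein and recurs in the minor satellite of mouse centromeres. The search was made after the site had been seen, and whether reads from other copies of such a repeat were placed here was not tested.

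**Figure D4:**
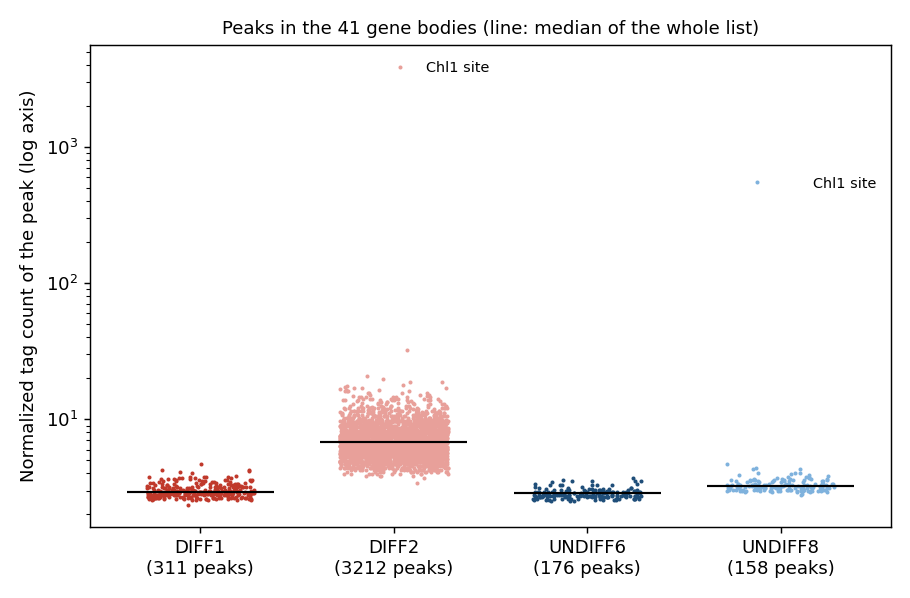
Normalized tag count (log axis) of each peak in the 41 gene bodies, for DIFF1 (311 peaks), DIFF2 (3212), UNDIFF6 (176) and UNDIFF8 (158), with a line at the median of the whole list. The Chl1 site stands alone at 3893.5 in DIFF2 and 549.7 in UNDIFF8.

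The strength of the member peaks was set against that of their lists. The median fold over input was 4.20 in DIFF1, 5.69 in DIFF2, 3.67 in UNDIFF6 and 4.98 in UNDIFF8, beside 4.31, 5.15, 3.41 and 4.14 over the whole lists. A fold of at least 4 was reached by 55.6% of the member peaks in DIFF1, 72.8% in DIFF2, 40.3% in UNDIFF6 and 63.3% in UNDIFF8, beside 57.5%, 67.9%, 33.2% and 52.9% of the whole lists. Both measures of the fold were thus higher in the member peaks than in the list in DIFF2, UNDIFF6 and UNDIFF8. They were slightly lower in DIFF1, with no test made of the difference. The tags in the peaks were not higher. Their medians were 16.9, 23, 22.5 and 25 in DIFF1, DIFF2, UNDIFF6 and UNDIFF8, beside 16.9, 24, 22.9 and 25 over the whole lists. Median input tags were 4, 4.1, 6.5 and 5.3 in the same order, beside 4, 4.8, 7 and 6.3. Peak centres lay in repeats for 24.8% of the member peaks of DIFF1 (95% Wilson interval 20.3% to 29.8%), 82.2% of DIFF2 (80.8% to 83.5%), 15.9% of UNDIFF6 (11.2% to 22.0%) and 16.5% of UNDIFF8 (11.5% to 23.0%). The mean was 53.5 ± 40.6% in DIFF and 16.2 ± 0.39% in UNDIFF (SD, n = 2 each; exact permutation test, two-sided p = 0.33). DIFF2 sets most of that difference, which was 37.3 percentage points with it and 8.58 without it. The whole lists were higher in each sample, as was the genome against the sequence of these genes.

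The E-box was looked for in the member peaks and in the same sequence at large. CACGTG, which reads the same on both strands, was present in 9 of 311 member peaks of DIFF1, or 2.89% (95% Wilson interval 1.53% to 5.41%), beside 2.01% of the whole list and 1.60% of 215-base windows tiling the gene bodies. In DIFF2 it was in 83 of 3212, or 2.58% (2.09% to 3.19%), beside 2.65% of the list and 2.52% of 337-base windows. UNDIFF6 had it in 5 of 176, or 2.84% (1.22% to 6.48%), beside 2.13% of the list and 1.46% of 195-base windows. In UNDIFF8 it was in 0 of 158, which allows a share of up to 1.90%, beside 1.46% and 1.71%. The point shares of DIFF1 and UNDIFF6 were above those of the windows. The share of windows lay inside the Wilson interval in DIFF1, DIFF2 and UNDIFF6 and under the limit in UNDIFF8. A difference was thus not detectable with so few peaks in DIFF1, UNDIFF6 and UNDIFF8. In DIFF2, with 3212 peaks and a narrow interval, the share was close to that of the list and of the windows. Among peaks of at least 4-fold over input the shares were 4.05% of 173 in DIFF1, 2.44% of 2339 in DIFF2, 4.23% of 71 in UNDIFF6 and 0 of 100 in UNDIFF8. These are given without intervals and without the share of the whole list at that fold. Whether they differ from the list or the windows was not tested. When CACGTT was counted too, on either strand, DIFF2 had 4.39% (3.73% to 5.15%), beside 4.49% of the list and 5.67% of windows. UNDIFF8 still had 0 of 158, beside 3.89% of the list and 3.86% of windows. Both were below their windows, but in DIFF2 the interval held the share of the list. The windows were not matched to the peaks in repeat content. DIFF1 had 4.82% (2.94% to 7.80%), beside 4.29% of the list and 3.62% of windows. UNDIFF6 had 3.98% (1.94% to 7.98%), beside 4.04% of the list and 3.29% of windows. The DIFF1 peaks with an E-box lay in Rbfox1 and Cntnap2, with 2 each, and in Marchf1, Csmd1, Fhit, Wwox and Macrod2, and the UNDIFF6 ones in Cntn4, with 3, Ctnna2 and Tenm3. The Rbfox1 site printed above had 15.6 tags against 1.5 in the input (10.38-fold), and the Ctnna2 site 22.9 against 4.0 (5.74-fold). A match to these letters is a description of the sequence, not evidence of binding.

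**Figure D5:**
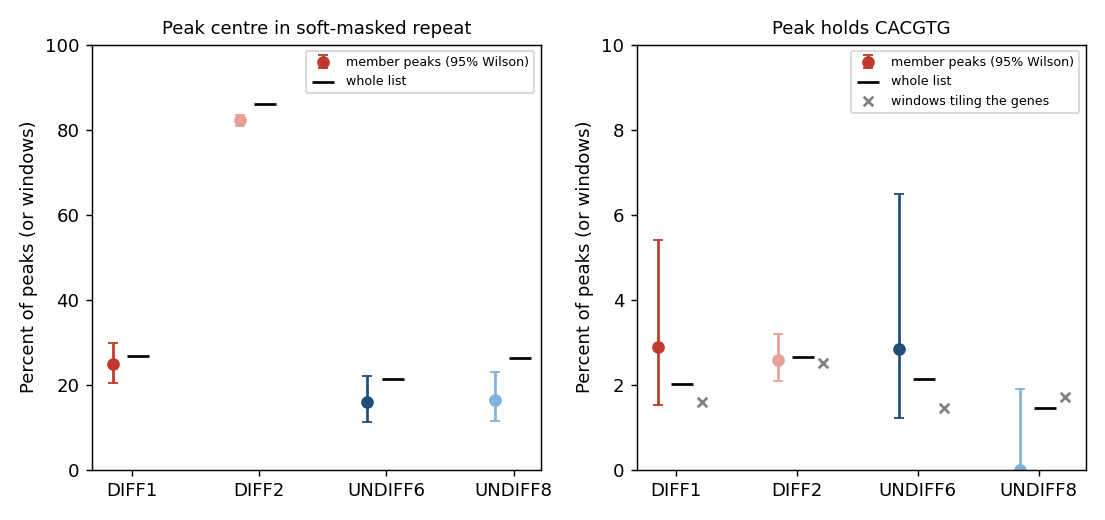
Percent of peaks in the 41 gene bodies whose centre is soft-masked (left) and which hold CACGTG (right), in DIFF1, DIFF2, UNDIFF6 and UNDIFF8, with 95% Wilson intervals (at 0, the limit of 3 counts), beside the whole list (bar) and, for the E-box, windows of the same width tiling the genes (cross). The DIFF2 peaks lie in repeats at 82.2%, against 24.8% or less in the other 3 lists.

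A second set of 51 long genes for neuronal and adhesion proteins, such as other contactins, cadherins and glutamate receptors, gave a similar picture. Their bodies held 279 peaks in DIFF1, 3128 in DIFF2, 125 in UNDIFF6 and 120 in UNDIFF8, or 1.03, 0.951, 1.00 and 1.19 times the expected number. Of the 50 that were at least 200 kb long, 0 passed limma at an adjusted threshold of 0.05, 3 were higher and 8 lower at an unadjusted one, and the median log2 density was -0.18. The highest averages were those of Astn2 (1.66 ± 0.29), Nkain3 (1.66 ± 0.28) and Cntn3 (0.97 ± 0.24), and the lowest those of Dmd (-2.09 ± 0.37), Adgrl3 (-1.67 ± 0.22) and Cntn1 (-1.10 ± 0.22, all SE).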

How the data were processed

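BMAL1 ChIP-seq was measured in 2 DIFF and 2 UNDIFF cultures of HC11 cells, grouped by the sample labels, each with its own input. The methods describe 4 independent ChIP experiments, and p-values measure only the spread between these samples. Before deposit, the authors took 1 of 5 parts of the DIFF2 reads, ran FastQC 0.11.7 and Fastx trimming on all reads, mapped these on GRCm38 (Bowtie2 2.2.9) and, one sample at a time, ran HOMER 4.10 for peaks. The deposited lists give tags in ChIP and input and normalized tag counts as signal, the focus ratio as a fraction, a findPeaks score, folds over input, local tags and clonal tags as a ratio, and unadjusted p-values. These were used as the authors deposited them, within a list. The deposited p-values and focus ratios were not used. Because each list was called on its own, absence of a peak does not mean absence of BMAL1.

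Peaks were assigned by their centre, with 45756 curated RefSeq transcripts (release 108.20200622) and 21000 protein coding genes. A gene body runs from the first to the last base of its curated transcripts. In UNDIFF6, 1 peak off the 21 nuclear chromosomes was left out. The expected number is the chromosome's peaks per ungapped Mb times the ungapped gene length. For limma 3.58.1 (R 4.3.3), log2(peaks + 0.5) less its mean for a Poisson count at the expected number was fitted by group over all genes of at least 200 kb, with Benjamini-Hochberg adjustment. On simulated counts for 938 genes at the real expected numbers, it recovered 60.5% of 200 genes changed 4-fold in all lists and 0% of those changed 2-fold. Peaks overlapped when they shared at least 1 bp, checked against bedtools 2.31.1. Python 3.11.15, pandas 2.3.3 and scipy 1.17.1 were used. The sequences are those of the RefSeq GRCm38 assembly.

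The members and gene lists were chosen with earlier results of these data known. Values in every list were given for the 10 genes highest and 5 lowest in average log2 density, genes with a site of 3 samples or a start site peak outside DIFF2, and Pard3, Pard3b, Ctnna2 and Dlg2. The other genes are named for their role. Alternatives changed the peak filter, the expected number, the gene length, the pseudocount and the samples.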

Additional observations from a re-analysis of the deposited data

How the results depend on the processing

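No paired analysis was possible because the DIFF replicates (1 and 2) and the UNDIFF replicates (6 and 8) share no number. The limma calls of density against the chromosome mean at an adjusted threshold of 0.05, 0 of 41, became 5 with an equal number of top scoring peaks per list, 1 with the expected number taken by GC class of 100-kb bins (Ptprd) and 9 with genes of at least 500 kb, and lay between 0 and 1 with 1 replicate left out (Ptprd, without UNDIFF6 or without UNDIFF8). At an unadjusted threshold the 14 members, beside 21.4% of all genes tested, became 9 by GC class, beside 18%. They became 6 of 37 with the 5 Mb on either side, beside 10.1%. The 2 members that differed between DIFF and UNDIFF at the unadjusted threshold, beside 6.08% of all genes tested, became 4 with the top scoring peaks. With no length filter they became 5. The number was 1 by GC class, from sequence outside gene bodies and from the 5 Mb on either side. It was also 1 with genes of at least 500 kb and with the plain log2 of the expected number. The shares over all genes are not given for these alternatives. Members above the chromosome mean in all lists, 5 of 41, stood beside 5.97% of all genes of at least 200 kb. They became 2 with the top scoring peaks and 3 by GC class or by the 5 Mb on either side. With 1 list left out they became 6 to 9, by construction. The 9 were those without DIFF2, beside 9.38% of all genes of at least 200 kb, and the other shares are not given. The DIFF minus UNDIFF difference of the median log2 ratio, 0.39, was -0.23 with the top scoring peaks and lay between -0.050 (without UNDIFF8) and 0.83 with 1 replicate left out. The 49 shared sites became 10 without soft-masked peaks, 24 at a fold over input of at least 4, 5 with the top scoring peaks and 4 (without DIFF2) to 40 with 1 list left out. The E-box share in DIFF2 was 4.39% when CACGTT was counted too, on either strand, beside 4.49% of the whole list and 5.67% of windows. DIFF2 and UNDIFF8 then lay below their windows, though DIFF2 did not lie below its list. Among single genes the average log2 density turned sign for Nrxn3 (0.12 at a fold of at least 4, and -0.69 to 0.45 with 1 replicate left out), Pard3b (-0.081 with the top scoring peaks and -0.12 with the 5 Mb on either side), Csmd3 (-0.038 by GC class), Dlg2 (0.19 with the whole RefSeq gene feature, and -0.59 to 0.20 with 1 replicate left out) and Pard3 (0.37 with the 5 Mb on either side, and -0.79 to 0.19 with 1 replicate left out). The cause of these shifts was not tested. In all, 83 other values of the comparisons and 245 of the 18 genes named by rule kept their direction and their side of the threshold, and 13 of those genes' values passed it. Where a state is left with 1 sample, limma takes its spread from the other state. Few peaks per gene limit the precision in DIFF1 and both UNDIFF lists, where 0 peaks in a gene is not a sign that BMAL1 is absent.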
